A study of Mus musculus with 9 samples.

Results

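Krüppel-like factors (KLFs) were followed through adipocyte differentiation of 3T3-L1 cells. The 10 genes described here are Klf2, Klf3, Klf4, Klf5, Klf6, Klf9, Klf10, Klf11, Klf13 and Klf15. They were taken by gene symbol from the 19094 genes that the deposited files list in at least 1 sample, and no expression threshold was used. The 10 genes and the gene lists used below were chosen with earlier results of these data known. Their counts beside the shares of all tested genes are therefore descriptions and not tests. KLFs are transcription factors that bind GC-rich and CACCC sequences with C2H2 zinc fingers at the end of the protein. In adipogenesis they are known to act in a chain, in which early members switch on C/EBP and PPARγ, later members support the mature adipocyte, and others hold preadipocytes back or recruit corepressors.

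RNA-seq was performed on 3T3-L1 cells, a clonal mouse preadipocyte line, at 3 stages with 3 replicates each, which gives 9 samples. Day 0 cells were confluent preadipocytes in serum-containing medium, taken before any inducer was added. Day 4 cells had received dexamethasone (a synthetic glucocorticoid), IBMX (a phosphodiesterase inhibitor that raises cyclic AMP) and insulin for 2 days, and then insulin without the other agents for 2 days. Day 8 cells had received insulin for 4 more days. No group was kept in culture for the same time without the inducers, so the effects of induction and of time in culture cannot be told apart. The study's methods describe cells pooled within a stage and samples made from a mixture of RNA, and nothing in the labels says that replicates came from separate cultures. The p-values therefore measure only the spread between these samples, which may be technical.

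The labels call the cells adipocytes at every stage, and their extraction text speaks of dorsal root ganglion tissue, so marker genes were examined first. The summed level of 10 adipocyte markers ranged from 167 to 173 FPKM before induction, from 5936.5 to 8380.5 FPKM in day 4 cells and from 8761 to 9599.9 FPKM in day 8 cells. FPKM is the number of fragments the authors assigned to a gene per kilobase of its length, relative to the depth of that sample. Fabp4, the fatty acid binding protein of adipocytes, averaged 9.52 FPKM before induction, 4052 FPKM in day 4 cells and 4828 FPKM in day 8 cells. Preadipocyte or fibroblast markers stayed abundant, and their 8 genes summed to 5939.7 to 6328.2 FPKM before induction, 4479.8 to 4784.9 FPKM in day 4 cells and 5060.1 to 5266.2 FPKM in day 8 cells. Vim was the most abundant of them at day 0 and day 4, with means of 2541 and 2054 FPKM, and Col1a1 at day 8, with 2270 FPKM. Of 9 sensory neuron markers, 8 stayed under 1 FPKM in every sample, and the list summed to between 0.59 and 1.73 FPKM. The other marker, Snap25, had a mean of 1.12 FPKM at day 4 and 1.10 FPKM at day 8. Endothelial markers summed to 0.28 to 1.15 FPKM and macrophage markers to 5 to 8.98 FPKM. Of the 7 macrophage markers, Adgre1, Csf1r, Ptprc and Itgam were under 1 FPKM in every sample. Cd14 was the most abundant, with means of 4.48, 3.13 and 2.70 FPKM at day 0, 4 and 8, Cd68 had means of 1.32, 1.30 and 1.49 FPKM, and Lyz2 had 1.80, 0.400 and 0.930 FPKM. Muscle markers summed to 4.41 to 10.52 FPKM, of which desmin (Des) had means of 3.74, 4.51 and 8.23 FPKM and Acta1 0.730, 0.647 and 1.4 FPKM, and Myod1 was not listed.

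Each sample held between 18216114 and 20452144 expected counts, which are RSEM's estimated reads per gene. A gene with 3 counts had 0.147 to 0.165 CPM (counts scaled to a fixed library total) at these depths, and this floor covers counting error only. The rounded counts of all 9 samples were fitted together in edgeR, the quasi-likelihood F-test was used for each pair of days, and p-values were adjusted over 13154 tested genes (Benjamini-Hochberg). To be called, a gene needed both an adjusted p below 0.05 and a fold change of more than 2 (1 on the log2 scale) in either direction. The thresholds follow the methods of the study. All 10 KLFs passed the filter on low counts. Day 4 against day 0 is named the early phase, day 8 against day 4 the late phase and day 8 against day 0 the whole process. The 3 comparisons share samples and are not independent of each other. Of the 8 preadipocyte or fibroblast markers, Dlk1 and Ly6a were called lower early (7.98% of all tested genes were) and none was called higher (9.77%). The muscle markers Des and Acta1 were both called higher over the whole process (10.3%). Snap25, the 1 sensory neuron marker that was tested, was called higher early (log2 fold change 5.451, edgeR adjusted p = 3.3e-08) and over the whole process. The part of these markers in the results was not tested.

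Of the 10 KLFs, 9 had at least 3 counts in every sample at day 0, and 10 of 10 did at day 4 and at day 8. Klf15 was the exception at day 0. In FPKM, the order at day 0 was Klf6, Klf4, Klf3, Klf2, Klf13, Klf10, Klf9, Klf11, Klf5 and Klf15, and the values of neighbours in this order did not overlap. At day 4 the order was Klf6, Klf9, Klf3, Klf2, Klf13, Klf4, Klf5, Klf10, Klf15 and Klf11. The 3 values of Klf3 overlapped those of Klf2, those of Klf2 overlapped those of Klf13, and those of Klf13 overlapped those of Klf4. At day 8 the order was Klf3, Klf2, Klf6, Klf9, Klf13, Klf10, Klf4, Klf15, Klf11 and Klf5. The neighbours Klf3 and Klf2, Klf13 and Klf10, and Klf10 and Klf4 overlapped at that stage.

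**Figure D1:**
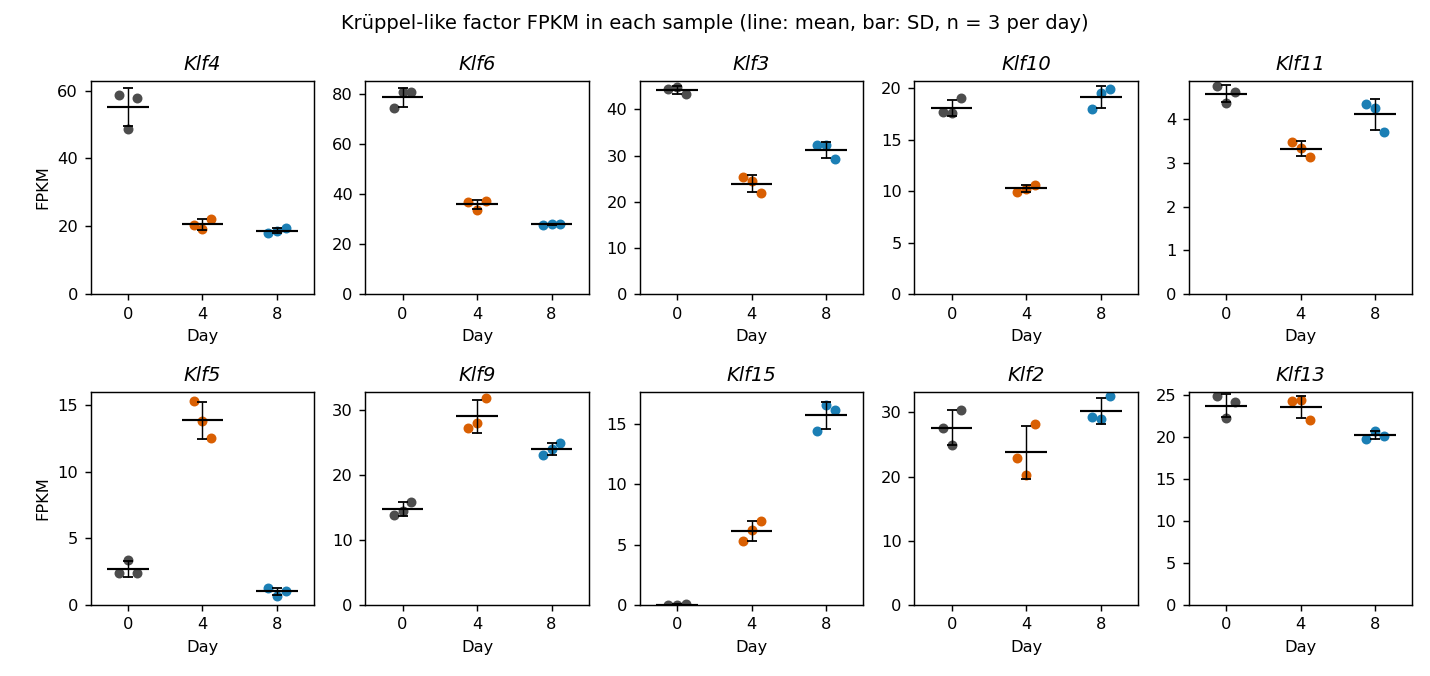
Deposited FPKM of each KLF gene in the 9 samples, 1 panel per gene with its own axis from 0, against the day of differentiation. Points are samples, horizontal lines are means and bars are SD (n = 3 per day). Klf4 and Klf6 are highest at day 0, Klf5 is highest at day 4, and Klf15 is near 0 at day 0 and highest at day 8.

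The summed level of the 10 KLFs averaged 269.7 ± 8.74 FPKM before induction, 190.4 ± 6.52 FPKM in day 4 cells and 192 ± 3.63 FPKM in day 8 cells (SD, n = 3). The day 0 samples (261.51 to 278.91 FPKM) lay above all later samples, while day 4 and day 8 overlapped. Klf6 made up 29.2% of the sum at day 0, 18.9% at day 4 and 14.6% at day 8, and Klf4 made up 20.4%, 10.8% and 9.69%. Klf9 took 5.47% of the sum at day 0, 15.3% at day 4 and 12.5% at day 8. Klf15 took 0.00733% at day 0, 3.23% at day 4 and 8.16% at day 8. Klf5 held 7.31% at day 4, against 1.01% at day 0 and 0.523% at day 8. Such shares are relative, and in bulk RNA fewer cells expressing a gene and less of its RNA per cell cannot be told apart.

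**Figure D2:**
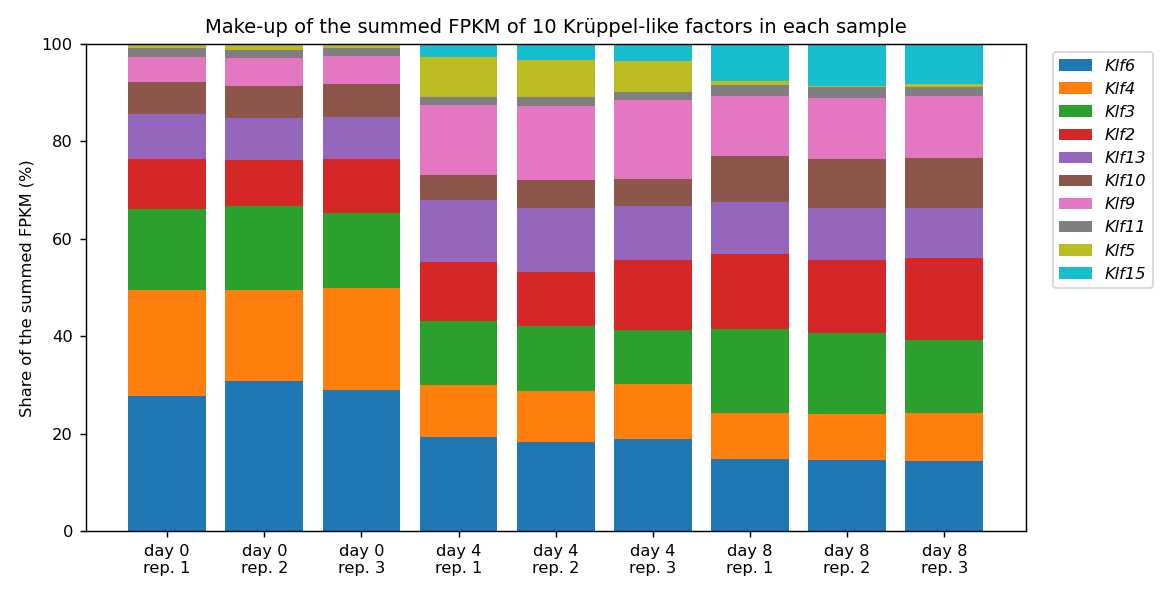
Share of each gene in the summed FPKM of the 10 KLFs (%), stacked to 100% for each of the 9 samples. Klf6 and Klf4 together fill the largest block at day 0, and the blocks of Klf9, Klf5 and Klf15 are wider at day 4, with Klf5 thin again at day 8.

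In the early phase, 3 KLFs rose (Klf5, Klf9 and Klf15), where 9.77% of all tested genes were called higher, and 2 fell (Klf4 and Klf6), where 7.98% were called lower. In either direction 5 of 10 KLFs and 17.8% of all tested genes were called. In the late phase only Klf15 was called higher and only Klf5 lower among the 10, against a background of 4.24% higher, 2.81% lower and 7.05% in either direction. Over the whole process Klf15 rose and Klf4, Klf5 and Klf6 fell, and the background was 10.3% higher, 7.70% lower and 18.0% in either direction. In at least 1 comparison 5 of the 10 KLFs were called, and so were 23.9% of all tested genes. With the adjusted p threshold alone, 8 of 10 KLFs differed in the early phase (background 69.2%), 9 of 10 in the late phase (45.3%) and 8 of 10 over the whole process (71.0%). By direction at this threshold, 3 were higher and 5 lower early (background 35.5% and 33.7%), 5 higher and 4 lower late (22.5% and 22.7%), and 4 higher and 4 lower over the whole process (34.8% and 36.2%). The median log2 fold change of the 10 KLFs was -0.28 early, 0.13 late and -0.09 over the whole process, and over all tested genes it was 0.02, -0.01 and -0.02.

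The FPKM values of the 2 days compared did not overlap for 8 of 10 KLFs in the early phase, for 9 of 10 in the late phase and for 8 of 10 over the whole process. Among all tested genes such separation was found for 71.6%, 54.6% and 76.4%. Klf2 and Klf13 overlapped in the early phase, Klf4 in the late phase, and Klf2 and Klf10 over the whole process. The early and late changes went in opposite directions for 5 KLFs at the adjusted p threshold. Klf3, Klf10 and Klf11 were lower at day 4 and then higher at day 8, as were 9.82% of tested genes. Klf5 and Klf9 were higher at day 4 and then lower, as were 10.9%.

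**Figure D3:**
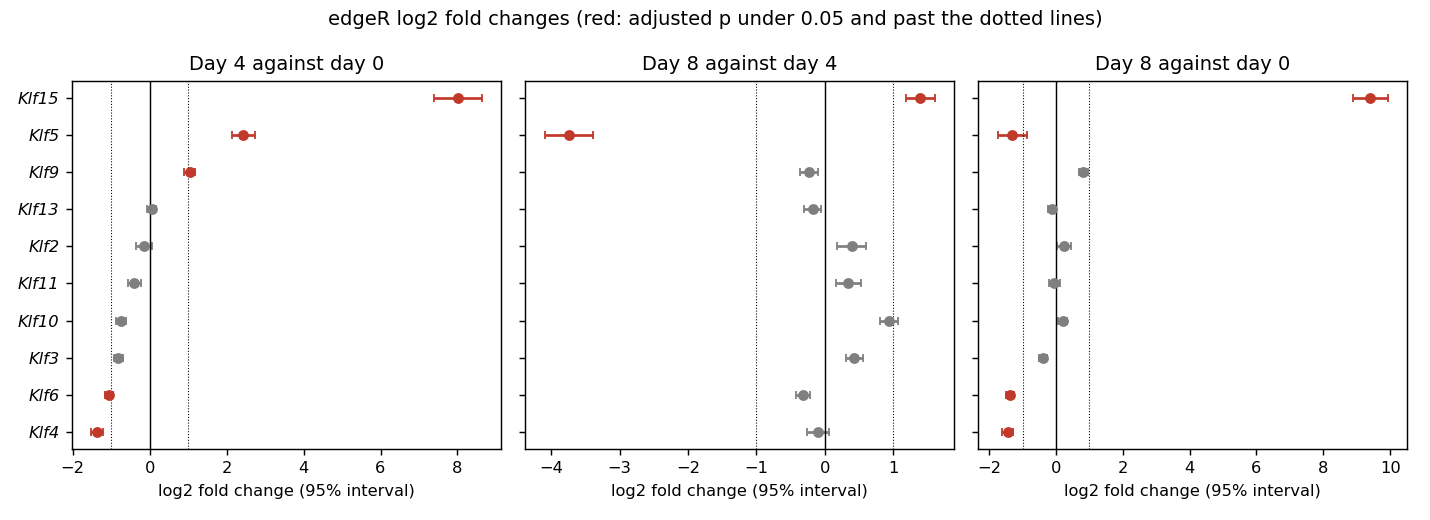
Log2 fold changes of the 10 KLFs from edgeR with 95% intervals, for day 4 against day 0, day 8 against day 4 and day 8 against day 0. Red points passed an adjusted p under 0.05 and the dotted lines at a log2 fold change of 1 and -1. The intervals of Klf15 against day 0 are too narrow, since they fall short of its counting error. Klf15 and Klf5 lie farthest from 0 in the early and late phase.

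Promoters were examined for KLFs that moved in the same direction. RefSeq's promoter table (GRCm38.p6) held 8 of the 10 genes, and Klf5 and Klf10 were not in it. The 250 bases before the start are printed here for both genes that fell in the early phase and for 2 of those that rose, 5′ to 3′ on the strand of the gene. Capitals mark GGGCGG or its reverse complement CCGCCC, the GC box that Sp and KLF proteins are known to bind.
Klf4 (chr4:55532476-55532725, minus strand): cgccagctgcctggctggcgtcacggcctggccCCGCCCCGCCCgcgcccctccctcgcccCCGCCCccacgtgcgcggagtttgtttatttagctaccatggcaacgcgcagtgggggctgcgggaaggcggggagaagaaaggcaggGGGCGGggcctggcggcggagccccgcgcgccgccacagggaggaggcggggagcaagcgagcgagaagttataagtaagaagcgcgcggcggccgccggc
Klf6 (chr13:5861239-5861488, plus strand): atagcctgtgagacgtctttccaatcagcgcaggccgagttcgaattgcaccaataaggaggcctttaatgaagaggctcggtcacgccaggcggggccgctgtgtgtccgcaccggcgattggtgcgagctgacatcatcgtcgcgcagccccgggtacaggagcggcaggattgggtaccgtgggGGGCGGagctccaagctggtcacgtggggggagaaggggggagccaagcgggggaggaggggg
Klf9 (chr19:23140976-23141225, plus strand): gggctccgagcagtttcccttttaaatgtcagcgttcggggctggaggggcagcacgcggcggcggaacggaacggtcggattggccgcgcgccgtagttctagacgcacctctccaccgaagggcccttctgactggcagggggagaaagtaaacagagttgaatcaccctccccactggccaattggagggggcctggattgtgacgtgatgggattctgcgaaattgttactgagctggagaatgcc
Klf15 (chr6:90462326-90462575, plus strand): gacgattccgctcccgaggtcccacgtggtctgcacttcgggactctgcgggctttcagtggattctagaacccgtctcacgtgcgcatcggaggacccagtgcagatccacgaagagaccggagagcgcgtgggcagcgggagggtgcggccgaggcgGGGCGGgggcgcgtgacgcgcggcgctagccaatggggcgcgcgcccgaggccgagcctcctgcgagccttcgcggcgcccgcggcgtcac

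On both strands, the GC box occurred in 7 of the 8 KLF promoters and in 32.7% of the 32851 promoters in the table. Klf3 held 6 matches, Klf4 and Klf11 4 each, Klf13 3, Klf2 2, and Klf6 and Klf15 1 each, and overlapping matches were counted. Klf9 was the gene without a match. The median GC content was 71.8% over the 8 promoters and 52.4% over all, and Klf9 was the lowest of the 8 with 59.6%. CCACCC, the CACCC motif, was found in Klf2, Klf3 and Klf13, and in 28.1% of all promoters. The core of the cyclic AMP element, TGACG, occurred once each in Klf2, Klf4, Klf9 and Klf13 and 2 times in Klf15, against 17.8% of all promoters with a match. The full element TGACGTCA, which contains that core on both strands, the glucocorticoid receptor core TGTTCT and the TATA motif TATAAA had no match in these 8 windows and occurred in 1.55%, 16.1% and 12.4% of all promoters. These are matches of letters in 1 window per gene and say nothing of binding.

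Klf4 fell in the early phase and stayed at its lower level. KLF4 is known to act in the first hours after induction, when it activates Cebpb together with Krox20, the product of Egr2. At day 0 the 3 samples had 58.75, 48.79 and 57.95 FPKM, at day 4 they had 20.4, 19.09 and 22.1 FPKM, and at day 8 they had 18, 18.55 and 19.41 FPKM. All day 0 samples lay above all later samples, and the samples of day 4 and day 8 overlapped. Klf4 fell by 1.36 on the log2 scale in the early phase (SE 0.072, edgeR adjusted p = 6.9e-11) and by 1.45 over the whole process (SE 0.073, edgeR adjusted p = 3.3e-11). In the late phase its log2 fold change was -0.09 (95% interval -0.252 to 0.068, edgeR adjusted p = 0.34). Klf4 is also abundant in endothelial cells, whose 7 markers summed to 0.82 to 1.15 FPKM before induction and 0.28 to 0.45 FPKM in day 4 cells. All 6 of the listed endothelial markers, Cdh5, Kdr and Vwf among them, stayed under 1 FPKM, and Klf4 was at 48.79 FPKM or more before induction. Of the 2 that were tested, Vwf was called lower early (log2 fold change -2.955, edgeR adjusted p = 2.5e-08), as were 7.98% of all tested genes. The other, Pecam1, was not called early (0.092, edgeR adjusted p = 0.85). It was called higher late (1.008, edgeR adjusted p = 0.027, background 4.24%) and over the whole process (1.1, edgeR adjusted p = 0.011, background 10.3%). The part of endothelial cells in the Klf4 values was not tested.

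Its partner gene Egr2 had FPKM values of 10.73, 12.27 and 14.41 at day 0 and 4.78, 3.84 and 8.39 at day 4. It fell by 1.07 on the log2 scale (edgeR adjusted p = 0.00013), and this call was lost without day 0 replicate 3 (-0.95), without day 4 replicate 1 (-0.97) and without day 4 replicate 2 (-0.87), and with glmTreat against a fold change of 2 (adjusted p = 0.92). Cebpb, the KLF4 target, had means of 72.6, 82.6 and 105 at day 0, 4 and 8. Its early log2 fold change of 0.25 passed the adjusted p threshold (edgeR adjusted p = 0.0056) and not the fold threshold.

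Klf6 was the most abundant KLF at day 0 and day 4, and fell in the early phase. KLF6 is known to repress Dlk1, the gene of the preadipocyte protein Pref-1. Klf6 had FPKM values of 74.40, 80.88 and 81.18 at day 0, 36.87, 33.83 and 37.21 at day 4, and 27.79, 28.26 and 28.02 at day 8. The 3 days did not overlap, and the level was lower at each later day. Klf6 fell by 1.06 on the log2 scale early (SE 0.050, edgeR adjusted p = 1.4e-11) and by 1.38 over the whole process (SE 0.050, edgeR adjusted p = 7e-13). In the late phase it was lower by a log2 fold change of -0.31 (SE 0.051, edgeR adjusted p = 9.9e-05), under the fold threshold. The early fall lies close to that threshold, and a test of whether the fold change exceeds 2 (edgeR's glmTreat) gave an adjusted p of 0.24.

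Dlk1 was lower at day 4 together with Klf6 and higher again at day 8. Its samples had FPKM values of 793.95, 827.68 and 861.05 at day 0, 183.11, 193.27 and 165.87 at day 4, and 417.77, 408.95 and 419.24 at day 8. Dlk1 fell by 2.13 on the log2 scale early (edgeR adjusted p = 3.4e-14) and rose by 1.25 late (edgeR adjusted p = 9.3e-11). Klf6 showed no such return in the late phase.

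Klf5 had the one profile among the 10 KLFs that rose and then fell at both thresholds, which 1.51% of the tested genes did. KLF5 is known to be induced by C/EBPβ and C/EBPδ and to activate Pparg with them. Klf5 had FPKM values of 2.39, 3.39 and 2.36 at day 0, 15.30, 13.85 and 12.52 at day 4, and 1.27, 0.69 and 1.05 at day 8. These rest on expected counts of 84, 106 and 83 at day 0, 531, 486 and 424 at day 4, and 44, 24 and 36 at day 8. The 3 days did not overlap, and the day 4 mean was 5.12 times the day 0 mean and 13.8 times the day 8 mean in FPKM.

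Klf5 rose by 2.43 on the log2 scale early (SE 0.143, edgeR adjusted p = 2.6e-10) and fell by 3.74 late (SE 0.168, edgeR adjusted p = 5.5e-11). Day 8 lay below day 0 by a log2 fold change of -1.31 (SE 0.207, edgeR adjusted p = 3.2e-05). That difference over the whole process was under the fold threshold with limma on log2(FPKM + 1) (-0.89), and glmTreat against a fold change of 2 gave an adjusted p of 0.18. Cebpd, which encodes C/EBPδ, had a profile of the same order. Its means were 23.0, 101 and 17.9 at day 0, 4 and 8, with a rise of 2.19 early (edgeR adjusted p = 2.3e-14) and a fall of 2.44 late on the log2 scale (edgeR adjusted p = 6e-14).

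Klf9 rose in the early phase and stayed above its day 0 level. KLF9 is known as a glucocorticoid-induced factor that activates Pparg late in differentiation together with C/EBPα. Klf9 had FPKM values of 13.91, 14.50 and 15.88 at day 0, 27.25, 28.03 and 31.94 at day 4, and 23.16, 24.05 and 24.91 at day 8. The 3 days did not overlap, and day 4 was highest. Klf9 rose by 1.04 on the log2 scale early (SE 0.066, edgeR adjusted p = 6.8e-10). It was then lower by -0.23 in the late phase (SE 0.064, edgeR adjusted p = 0.0084) and higher by 0.82 over the whole process (SE 0.067, edgeR adjusted p = 1.6e-08), both under the fold threshold. The early rise sits at the fold threshold, so its call ended without day 4 replicate 3 (0.98), with upper-quartile factors (0.99), with library size alone (0.98) and with both limma fits (0.93 and 0.97). Its direction and adjusted p threshold held in these fits, and glmTreat against a fold change of 2 gave an adjusted p of 0.64.

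Klf15 rose in both phases and had the largest early and whole-process fold change of the 10. KLF15 is known to promote Pparg and Slc2a4, the gene of the glucose transporter GLUT4, and to respond to glucocorticoids. At day 0 it had 0, 0.02 and 0.04 FPKM, from 0, 1 and 2 expected counts. At day 4 the samples had 5.29, 6.19 and 6.97 FPKM (245, 290 and 315 expected counts), and at day 8 they had 14.44, 16.54 and 16.16 FPKM (668, 767 and 738 expected counts). Every sample of a later day lay above every sample of an earlier day.

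The 850 counts of day 4 were 278 times those of day 0 per unit of depth, with a 95% interval of 94.8 to 1350.3, and the 2173 counts of day 8 were 711 times those of day 0, with an interval of 243 to 3449. These exact conditional intervals cover counting error only and are wide because day 0 held 3 counts in all. The fitted early log2 fold change of Klf15 was 8.01 (SE 0.291, edgeR adjusted p = 6.7e-13) and that of the whole process 9.41 (SE 0.244, edgeR adjusted p = 1.3e-14). Against so few counts these sizes depend on the processing, and over the alternatives they lay between 2.80 and 8.83 early and between 4.03 and 10.23 over the whole process. Both SEs were derived from the F statistic and are too small here, because they fall short of the counting error of the 3 counts at day 0. The late rise does not rest on day 0. It was 1.4 on the log2 scale (SE 0.1, edgeR adjusted p = 1.2e-08) and lay between 1.23 and 1.49 over the alternatives.

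Slc2a4 rose at the same stages, with FPKM values of 0.12, 0.27 and 0.1 at day 0, 16.87, 22.58 and 27.33 at day 4, and 47.04, 52.13 and 55.38 at day 8. Its late log2 fold change was 1.26 (edgeR adjusted p = 3.1e-07), beside 1.4 for Klf15, and glmTreat against a fold change of 2 gave an adjusted p of 0.16 for Slc2a4. Of the 9 tested genes of amino acid breakdown linked to KLF15, 7 were called higher early (background 9.77%) and none was called lower, with a median log2 fold change of 2.41 beside 0.02 over all tested genes. Got1, an aspartate transaminase gene, went the other way, from a mean of 45.1 FPKM at day 0 to 24.0 FPKM at day 4 (log2 fold change -0.84, edgeR adjusted p = 1.3e-10), under the fold threshold. Bcat2, which starts the breakdown of branched-chain amino acids, had means of 20.9, 173 and 126 at day 0, 4 and 8. The alanine transaminase gene Gpt had 1.66, 25.0 and 45.9 FPKM. In the late phase Hpd was called higher (background 4.24%) and Prodh lower (background 2.81%), both under 2 FPKM in their day means. The call of Hpd was lost with DESeq2 (adjusted p = 0.053), with limma on log2(FPKM + 1) (0.34), with glmTreat (adjusted p = 0.91) and without day 8 replicate 2 (edgeR adjusted p = 0.057). That of Prodh (-1.002) lay at the fold threshold and was lost with RLE size factors, without the filter on low counts, with DESeq2, with both limma fits, with glmTreat, with a replicate block (-0.996) and when any 1 of 4 samples was left out (-0.958 to -0.871).

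**Figure D4:**
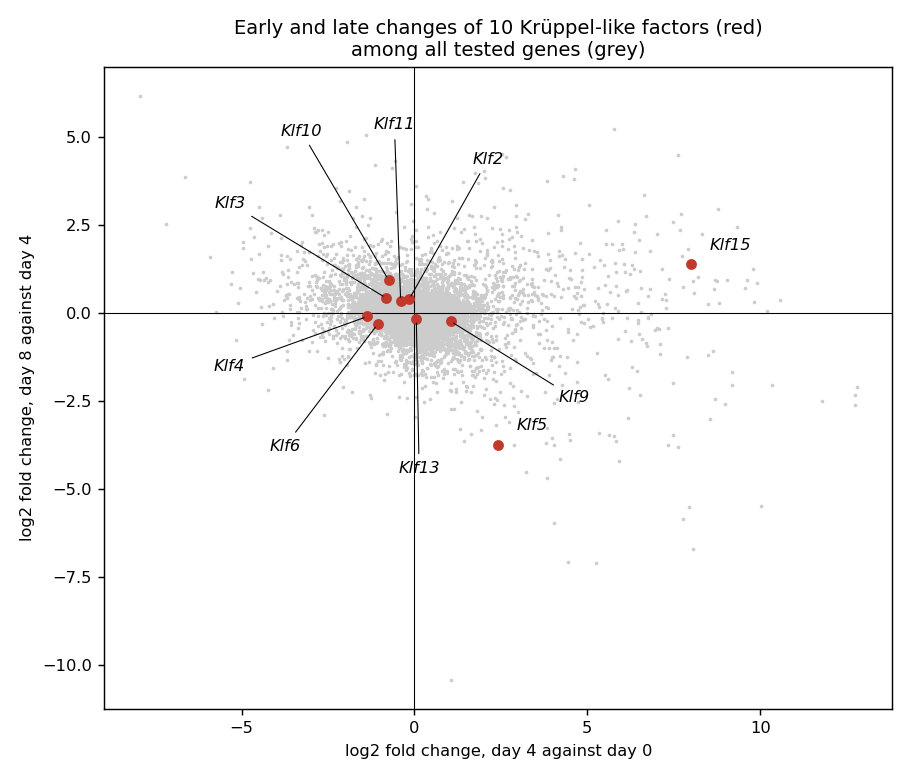
Early log2 fold change (day 4 against day 0, horizontal axis) and late log2 fold change (day 8 against day 4, vertical axis) of the 10 KLFs (red, named) and of all tested genes (grey), from edgeR. Klf15 lies far to the right and above 0, Klf5 lies to the right and far below 0, and the other 8 lie nearer to 0 than these on both axes.

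No change of Klf2 was called in any comparison. KLF2 is known to hold preadipocytes back by repressing Pparg. Klf2 had FPKM values of 27.51, 24.95 and 30.42 at day 0, 22.93, 20.18 and 28.24 at day 4, and 29.27, 28.94 and 32.58 at day 8. Day 4 overlapped day 0, and day 8 lay above day 4 in all samples, although day 4 replicate 3 came within 0.70 FPKM of the lowest day 8 sample. The early log2 fold change was -0.15 (95% interval -0.366 to 0.060, edgeR adjusted p = 0.19), so a fall past the fold threshold lay outside the interval. Klf2 was higher by 0.40 in the late phase (SE 0.1, edgeR adjusted p = 0.0042) and by 0.24 over the whole process (SE 0.099, edgeR adjusted p = 0.038), both under the fold threshold.

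The day 4 samples of Klf2 were in the same order as those of the immediate early gene Fos, which had 105.75, 67.35 and 185.49 FPKM in day 4 replicates 1, 2 and 3. Fosb followed that order too, with 22.34, 10.86 and 43.64 FPKM, and so did Klf4 and Klf6 among the KLFs. Of the 10 serum and immediate early genes, 2 were called higher early (Fos and Fosb, background 9.77%) and 2 lower (Ier3 and Atf3, background 7.98%). With the adjusted p threshold alone 5 were lower (background 33.7%), Egr1, Myc and Srf among them. Fos was highest in day 4 replicate 3 of all 9 samples. Their part in the spread of these KLFs was not tested.

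Klf3 was lower at day 4 and recovered in part by day 8. KLF3 is known to repress Cebpa by recruiting the corepressor CtBP. Klf3 had FPKM values of 44.50, 44.83 and 43.33 at day 0, 25.32, 24.53 and 21.91 at day 4, and 32.26, 32.28 and 29.26 at day 8. The 3 days did not overlap, with day 8 between the others. Its log2 fold changes were -0.82 early (SE 0.058, edgeR adjusted p = 2.3e-09), 0.43 late (SE 0.058, edgeR adjusted p = 1.7e-05) and -0.39 over the whole process (SE 0.056, edgeR adjusted p = 1.3e-05). All 3 passed the adjusted p threshold and none the fold threshold. In the GENCODE annotation 3.59% of the exon bases of Klf3 are overlapped by Gm20033 on the opposite strand, and without strand the reads of such a pair cannot be told apart.

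Cebpa, the KLF3 target, had means of 5.89, 87.2 and 123 at day 0, 4 and 8, and rose by 3.96 on the log2 scale early (edgeR adjusted p = 4.2e-14). Pparg, which KLF2 represses and KLF5, KLF9 and KLF15 activate, had means of 11.5, 93.2 and 129.7 FPKM. It rose by 3.00 early (edgeR adjusted p = 4e-15). The CtBP genes had means of 108, 112 and 106 FPKM for Ctbp1 and 18.0, 16.8 and 15.8 FPKM for Ctbp2 at day 0, 4 and 8, and neither passed the adjusted p threshold in any phase.

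Klf10 was lower at day 4 than at both other days. KLF10 and KLF11 are known as TGF-beta-inducible early gene products, and with KLF9 and KLF13 they recruit the corepressor Sin3A. Klf10 had FPKM values of 17.69, 17.59 and 19.01 at day 0, 9.96, 10.20 and 10.64 at day 4, and 17.95, 19.50 and 19.94 at day 8. All day 4 samples lay below all others, and day 0 and day 8 overlapped. Its log2 fold change was -0.75 early (SE 0.062, edgeR adjusted p = 1.9e-08) and 0.94 late (SE 0.062, edgeR adjusted p = 4.4e-09), under the fold threshold in both phases. Over the whole process it was 0.19 (95% interval 0.068 to 0.320, edgeR adjusted p = 0.0081).

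Klf11, like Klf10, was lowest at day 4, at a lower level and with smaller changes, but its mean was highest at day 0 and that of Klf10 at day 8. It had FPKM values of 4.77, 4.37 and 4.64 at day 0, 3.49, 3.35 and 3.15 at day 4, and 4.36, 4.27 and 3.71 at day 8. The 3 days did not overlap, although day 8 and day 0 came within 0.01 FPKM of each other. The log2 fold change was -0.40 early (SE 0.083, edgeR adjusted p = 0.00048) and 0.35 late (SE 0.084, edgeR adjusted p = 0.003). Over the whole process it was -0.05 (95% interval -0.223 to 0.123, edgeR adjusted p = 0.6), and the sign turned without day 8 replicate 3 (0.03).

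Among 10 genes of the TGF-beta pathway and its early response, none was called higher early (background 9.77%) and 3 were called lower (Smad7, Ctgf and Tgfbi, background 7.98%), and 2 were called higher late (Tgfbr1 and Tgfbi, background 4.24%). With the adjusted p threshold alone, 4 were higher and 6 lower early (background 35.5% and 33.7%), and 7 were higher and 1 lower late (22.5% and 22.7%). Tgfbr2, a receptor of the pathway, was among the 4, with means of 31.1 FPKM at day 0 and 38.3 FPKM at day 4 (edgeR adjusted p = 6.5e-06). Smad7, the inhibitory Smad of the pathway, had FPKM values of 5, 5.32 and 4.93 at day 0, 0.85, 1.01 and 0.91 at day 4, and 1.47, 1.16 and 1.31 at day 8. Tgfbi had means of 41.8, 9.27 and 24.5 at day 0, 4 and 8, and was thus highest at day 0 and lowest at day 4, like Klf3 and Klf11.

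Among the 10 KLFs followed here, Klf13 spanned the narrowest range of day means. The highest day mean of Klf13 was 1.17 times its lowest. KLF13 belongs with KLF9 to the short, Sin3A-binding members. Klf13 had FPKM values of 24.85, 22.19 and 24.10 at day 0, 24.20, 24.40 and 21.98 at day 4, and 19.77, 20.73 and 20.06 at day 8. Day 0 and day 4 overlapped, and all day 8 samples lay below all others. The early log2 fold change was 0.06 (95% interval -0.065 to 0.175, edgeR adjusted p = 0.4), and its sign turned with library size alone and with both limma fits (-0.01 each). It was -0.18 in the late phase (SE 0.057, edgeR adjusted p = 0.019) and -0.12 over the whole process (95% interval -0.242 to 0.000, edgeR adjusted p = 0.068).

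Of 14 corepressors and coactivators that KLF proteins recruit, Sap30 was called in the early phase (background 17.8%) and none in the late phase (7.05%) or over the whole process (18.0%). Sap30, a subunit of the Sin3 complex, had means of 4.98, 2.18 and 3.83 at day 0, 4 and 8 and fell by 1.12 on the log2 scale early (edgeR adjusted p = 7.1e-05), a call lost without day 4 replicate 1 (-0.955), with limma on log2(FPKM + 1) (-0.916) and with glmTreat against a fold change of 2 (adjusted p = 0.67). Sin3a itself had means of 16.9, 12.9 and 14.0 FPKM. None of 7 genes of KLF protein turnover was called in any phase, against the same backgrounds, and with the adjusted p threshold alone 3 were higher (background 35.5%) and 2 lower (33.7%) early. Fbxw7, part of a ubiquitin ligase for KLF5, had means of 4.35, 5.46 and 2.81 FPKM, and its late log2 fold change was -0.88 (edgeR adjusted p = 4.3e-07), under the fold threshold.

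Outside the 10, 6 of 8 other KLF genes were listed and 4 of them were tested. Of these 4, 1 was called lower early (background 7.98%) and 3 over the whole process (background 7.70%). Klf7, known to inhibit adipogenesis, had FPKM values of 6.63, 6.07 and 6.22 at day 0, 2.54, 2.32 and 1.53 at day 4, and 2.39, 2.68 and 2.87 at day 8. Klf7 fell by 1.496 on the log2 scale early (SE 0.159, edgeR adjusted p = 4e-07) and by 1.14 over the whole process (edgeR adjusted p = 5.8e-06), where glmTreat against a fold change of 2 gave an adjusted p of 0.45. Klf12 had means of 1.80, 1.32 and 0.680 FPKM and fell by 1.29 over the whole process (edgeR adjusted p = 4.9e-08), a call lost with limma on log2(FPKM + 1) (-0.736). Klf8, with 0.15 FPKM or less in every sample, was called lower over the whole process (-1.03, edgeR adjusted p = 0.04), and the call was lost with DESeq2 (adjusted p = 0.12), without the filter on low counts, with both limma fits, with glmTreat, with a replicate block (edgeR adjusted p = 0.059) and when any 1 of 4 samples was left out. Klf16 had means of 14.6, 13.3 and 12.5 FPKM and passed neither threshold. None of the 4 tested Sp genes, the closest relatives of the KLFs, was called in any phase (backgrounds 17.8%, 7.05% and 18.0%). With the adjusted p threshold alone 3 were lower early (background 33.7%), namely Sp1 (log2 fold change -0.51, edgeR adjusted p = 2.3e-07), Sp3 (-0.32, edgeR adjusted p = 1.4e-05) and Sp4 (-0.35, edgeR adjusted p = 0.033).

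For each called KLF, the 3 genes nearest to it in the plane of early and late log2 fold changes were named among 11461 tested genes whose mean log2 CPM reached 1, over 9 samples and 3 days. Nearest to Klf15 were G0s2, an inhibitor of lipolysis (distance 0.0848), Lgals12, a galectin of adipocytes (0.370), and Aatk (0.431). G0s2 had an early log2 fold change of 8.04 and a late one of 1.48. These distances come from the main fit and depend on the processing. Over the alternatives the early log2 fold change lay between 2.80 and 8.83 for Klf15 and between 6.055 and 8.19 for G0s2. For Lgals12 it lay between 3.088 and 8.088, and for Aatk between 1.17 and 10.065. Nearest to Klf5 were Clca3a1 (0.580), the AP-1 gene Fosb (0.646) and Il1rn, the interleukin-1 receptor antagonist (0.703). Over the alternatives the early log2 fold change of Klf5 lay between 2.011 and 2.607, and that of Fosb between 1.315 and 2.391. For Clca3a1 it lay between 2.235 and 2.443, and for Il1rn between 1.935 and 2.94. Klf4 had Recql4, Gm12250 and Eif2ak2 within 0.0453, Klf6 had Nox4, Grpr and Rin1 within 0.0506, and Klf9 had Fbxo45, Csad and Nfs1 within 0.0244. The last 3 KLFs lie where genes are dense in this plane, and Klf5 and Klf15 where they are sparse, so the distances are not comparable between KLFs.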

How the data were processed

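RNA-seq of 9 samples of 3T3-L1 cells was analysed, 3 each at day 0, 4 and 8, grouped by the day in the sample titles. The authors filtered the reads, mapped them with HISAT/Bowtie2 and quantified genes with RSEM. The submitters' processing notes also name CASAVA 1.4, and the genome build is not given in the sources used here. The authors deposited an RSEM expected count per gene and sample, which is not normalized and in 29.8% of cases is fractional. The FPKM beside it was computed by the authors from gene length and sample depth. The library kit in the labels is of another platform than the Illumina sequencer in the methods. A gene without a row in a file was taken as 0.

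Rounded expected counts were fitted with edgeR 4.0.16 under R 4.3.3 (filterByExpr by day, TMM factors, glmQLFit and glmQLFTest, 1 coefficient per day, no covariate). The standard error is the size of the log2 fold change divided by the square root of F. Alternatives used DESeq2 1.42.0, limma 3.58.1 on log2(FPKM + 1) and log2(FPKM + 0.1), edgeR's exact test and glmTreat, other normalizations and filters, fits to the 2 days compared, a replicate block, and each of the 9 samples left out. The steps were tested on simulated data. No 2 replicates differed by less than the sampling noise. Totals of 18216114 to 20452144 expected counts set the precision for low genes such as Klf15 at day 0.

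The text names all 10 KLFs in every comparison, genes of lists of their relatives, cofactors and targets (mainly the called ones), and for each called KLF the 3 nearest genes. The members and lists were chosen with earlier results of these data known. Promoters come from RefSeq's GRCm38.p6 table. Of 50-base stretches in GENCODE vM21 transcripts, at most 0.35% per KLF (Klf3) occur in transcripts of other genes.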

Additional observations from a re-analysis of the deposited data

How the results depend on the processing

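Over 30 fold changes of the 10 KLFs and all alternatives, 614 of 627 values kept their direction and their side of the thresholds, 9 lost the call and 4 turned in sign. With glmTreat against a fold change of 2, 1 KLF (Klf4) was called lower in the early phase in place of 2. Klf9 also lost its early call (glmTreat adjusted p = 0.64), and Klf5 lost its whole-process call (glmTreat adjusted p = 0.18). With at least 10 counts in every sample, 0 KLFs were called higher in the late phase and over the whole process in place of 1, because this filter removes Klf15 from the test and leaves 9. With each sample left out in turn, the number called higher in the early phase lay between 2 and 3, and the other counts did not move. The sign of the early Klf13 change turned to -0.011 with library size alone, with limma on log2(FPKM + 1) and with limma on log2(FPKM + 0.1), and that of the whole-process Klf11 change to 0.029 without day 8 replicate 3 (range -0.089 to 0.029 with each sample left out). The cause was not tested. Of 9 same-numbered pairs of samples, 0 correlated over 0.1 (range -0.035 to 0.075, mean 0.031). The 18 pairs with different numbers ranged from -0.1 to 0.063, with a mean of -0.015. All these correlations are weak, and whether the numbers pair the samples was not tested. A replicate block changed no call of the 10 KLFs, with 3 higher and 2 lower in the early phase as without it, and 1287 genes were called higher in the early phase with it, against 1285 without. Klf8 lost its whole-process call under the block (adjusted p = 0.059). Library size alone moved the median whole-process log2 fold change of all genes from -0.018 to -0.129. Called totals over all genes (1285 higher and 1050 lower early, 558 and 370 late, 1356 and 1013 over the whole process) moved by over 1.5 times with limma on log2(FPKM + 1) (708 and 565, 224 and 136, 753 and 528). With glmTreat this held for 664 lower early, 248 and 129 late and 571 lower over the whole process, and with at least 10 counts in every sample for 831 higher early and 310 and 173 late. Depth limits Klf15 at day 0 and Klf8 throughout. Calling KLFs detected at an FPKM of at least 1 in every sample gave 9, 10 and 9 at day 0, 4 and 8, against 9, 10 and 10 at 3 counts.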

Other observations

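Of 8 known glucocorticoid-responsive genes other than Klf9 and Klf15, 5 were called higher early, where 9.77% of all tested genes were, and 5 were called lower late, where 2.81% were. Both counts hold Fkbp5, Tsc22d3, Zbtb16 and Per1, while Lcn2 was called in the early phase alone and Dusp1 in the late phase alone. Over the whole process 2 were called higher (Zbtb16 and Lcn2, background 10.3%), none was called lower (background 7.70%), and with the adjusted p threshold alone 6 were higher (background 34.8%) and 1, the kinase gene Sgk1, was lower (background 36.2%, log2 fold change -0.65, edgeR adjusted p = 3.1e-07). Nr3c1, the gene of the glucocorticoid receptor, was lower early (-0.62, edgeR adjusted p = 2e-08) and higher late (0.85, edgeR adjusted p = 1.8e-09), under the fold threshold in both phases. Fkbp5, a co-chaperone of the glucocorticoid receptor, had 199.32, 201.19 and 197.26 FPKM at day 4, against 11.35 to 14.05 FPKM at day 0 and 13.75 to 14.7 FPKM at day 8. Tsc22d3, which encodes GILZ, had means of 30.8, 278 and 52.3 FPKM, and Zbtb16, a zinc finger gene, 0.203, 18.0 and 3.5 FPKM. Per1, a clock gene, had 8.41, 27.6 and 11.7 FPKM. Lcn2, which encodes lipocalin 2, had 1.39, 104 and 58.0 FPKM, and Dusp1, a phosphatase gene, 24.6, 46.4 and 20.7 FPKM. Klf9 had a mean of 24.0 FPKM at day 8 beside 29.1 FPKM at day 4, and Klf15 was higher at day 8 than at day 4.

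Of 12 adipogenic regulators linked to KLFs, 6 were called higher early (background 9.77%) and 4 lower (background 7.98%). Those called lower were Dlk1, Egr2, Gata2 and Gata3. The GATA factors encoded by the last 2 are known to hold preadipocytes back. Gata2 had means of 10.04, 1.79 and 3.68 FPKM at day 0, 4 and 8, the same order of days as Klf3. Ier3 and Atf3, stress-responsive early genes, were also lowest at day 4, with means of 43.7, 10.5 and 25.8 FPKM for Ier3 and 5.70, 0.880 and 4.03 FPKM for Atf3.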
